A study of Mus musculus with 3 samples.

Results

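Spi1, Cebpa, Cebpb, Cebpd, Cebpe, Irf8 and Nfe2 encode transcription factors that direct blood progenitors into the myeloid, granulocytic, monocytic and megakaryocytic lineages. They were taken by name as a family of myeloid regulators, 7 of 21883 protein-coding genes in the RefSeq table of the build, by a rule that uses no measured value but was written with earlier results of these data known. For each gene, every RXRA peak in the gene or within 100 kb of it was collected in each library. A peak was placed by its summit: at a gene end (within 1 kb of either end of the gene), internal (inside the gene and farther than 1 kb from both ends) or distal (outside the gene, farther than 1 kb and up to 100 kb away). The windows held 11 of the 4047 peaks of the HSC library, 74 of the 29848 peaks of MPP replicate 1 and 45 of the 19570 peaks of MPP replicate 2.

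The series mapped the retinoid X receptor RXRA on chromatin by CUT&RUN, in which micrococcal nuclease, fused to protein A, cuts DNA around an antibody-bound protein and the freed fragments are sequenced from both ends. Hematopoietic stem cells (HSC, sorted as Lin-, cKit+, Sca1+, CD48-, CD150+) gave 1 library of 10000 cells. Multipotent progenitors (MPP, sorted as Lin-, cKit+, Sca1+, CD150-) gave 2 libraries of 50000 cells each. All cells came from bone marrow of C57BL/6 mice about 10 months old, pooled from 3 or 4 animals. The labels give the genotype as VavCre+; WT and the source animals as Rxrabfl/fl (WT), the same for every library. Vav-Cre is a transgene active in blood cells. Both entries say WT while naming Cre or floxed alleles, and whether the cells used carried floxed alleles cannot be settled from them. All libraries were exposed to bexarotene, an RXR-activating drug, at 1 mM for 1 h per the labels, so its effect cannot be compared here. No library made with a control antibody was used here. The labels do not say whether the 2 MPP libraries came from separate pools. No expression was measured, so the sorted identity could not be checked against marker genes.

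RXRA is a nuclear receptor that binds DNA as a heterodimer with partners such as the retinoic acid receptors and the liver X receptors, typically at repeats of a 6-base sequence of the AGGTCA type. Its ligands include retinoid drugs, and retinoic acid signalling has a long history in granulocyte differentiation. PU.1, the product of Spi1, and the C/EBP factors bind together at many myeloid enhancers. Both are controlled in turn by elements that can lie far from the gene.

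The 3 lists differ in depth, and a longer list holds more peaks near any gene. The files give no read totals, so depth was read from the peaks themselves: the genome-wide background recovered from the caller's values was 0.604 fragments in HSC, then 2.87 and 1.08 in MPP replicates 1 and 2. The lowest summit pileup (the number of fragments over the summit) that was called was 5 in HSC, then 10 and 6 in MPP replicates 1 and 2. A site without a peak in HSC has no listed value there, so no enrichment was called there, which is not a measured zero. With 1 HSC library there is no replicate error for HSC and no test between the cell types. Pileups are given with exact Poisson 95% intervals, which cover counting error only. Folds are the authors' deposited enrichment over local background and, apart from being the values from which pileups were recovered, served only to rank peaks within 1 list. HSC and MPP replicate 1 have a tag in common in their peak names, which replicate 2 does not have. How far processing differed between the libraries was not tested.

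RXRA peaks lay at an end of 5 of the 7 genes in both MPP libraries (Spi1, Cebpa, Cebpd, Irf8 and Nfe2) and at an end of Spi1 and Nfe2 alone in HSC. In MPP replicate 2, Cebpd is counted by a peak that also lies at an end of Spidr, and Cebpd is not its nearest gene. Cebpb and Cebpe had no gene-end peak in any library. Among all protein-coding genes, 40.0% had a gene-end peak in MPP replicate 1, 35.1% in MPP replicate 2 and 28.0% in both, against 71.4% of the 7 genes in each case. In HSC the share was 7.97% of all genes and 28.6% of the 7. In all 3 libraries it was 5.58% of all genes and 2 of the 7. No library had a gene-end peak at 52.6% of all genes and at 2 of the 7. With 7 genes a single gene moves a share by 14.3 percentage points, so these shares describe the 7 genes and were not tested. Among peaks with a q of 1e-05 or lower, the MPP libraries kept the same 5 genes each and HSC had none. With each MPP list held to its 4047 peaks of highest fold, the length of the HSC list, MPP replicate 1 had none of the 7 and MPP replicate 2 had Spi1 and Nfe2.

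Internal peaks were fewer. Spi1 alone held any in MPP replicate 1, where 27.1% of all genes did, and Spi1, Irf8 and Nfe2 held some in MPP replicate 2, where 19.2% did. None of the 7 had an internal peak in HSC, where 4.97% of all genes did. No library had one in 4 of the 7 (Cebpa, Cebpb, Cebpd and Cebpe), beside 69.6% of all genes, and both MPP libraries had one in Spi1 alone, beside 16.2%. Gene length limits these counts. Cebpb (1.52 kb) and Cebpe (1.81 kb) have no point farther than 1 kb from both ends, so no peak in them can be internal. Cebpa (2.64 kb) and Cebpd (2.26 kb) leave little room for one. Distal peaks were present around all 7 genes in both MPP libraries, where 80.8% and 75.4% of all genes had one and 73.4% had one in both, and around 4 of the 7 in HSC (Spi1, Cebpb, Cebpe and Nfe2), where 40.4% did. The median number of peaks per window, all classes together, was 1 in HSC, then 12 and 6 in MPP replicates 1 and 2 for the 7 genes, and 0, 5 and 3 for all genes. The windows of Cebpa, Cebpd and Irf8 held no HSC peak of any class, as did those of 53.5% of all genes.

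**Figure D1:**
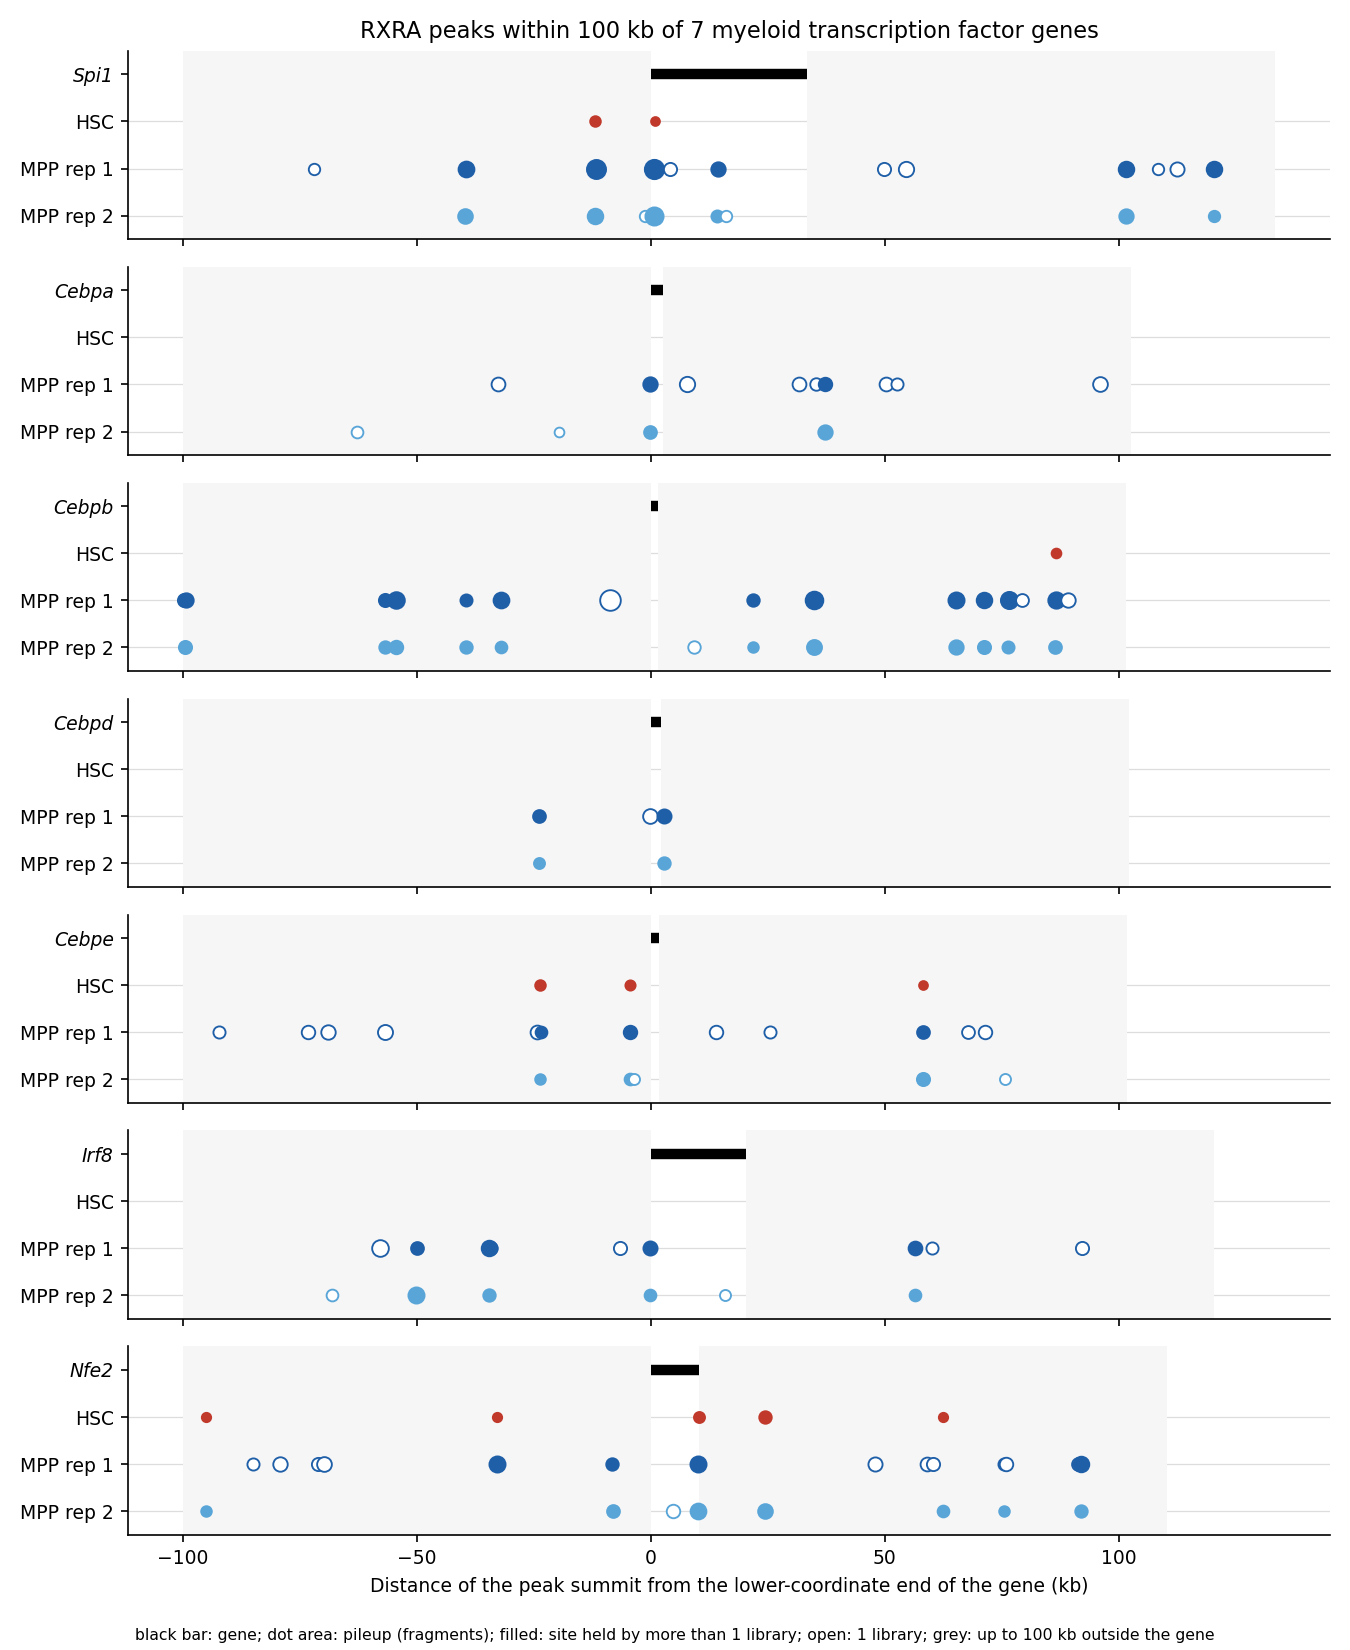
Position of every RXRA peak within 100 kb of each gene, in kb from the lower end of the gene (x axis), with 1 row per library and the gene as a black bar. The dot area grows with the summit pileup, filled dots are sites held by more than 1 library and open dots sites held by 1. The HSC rows of Cebpa, Cebpd and Irf8 are empty, and the HSC row of Nfe2 holds 5 dots.

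Peaks of the 3 libraries that overlapped by at least 1 bp were merged into 86 sites. Of these, 7 were held by all 3 libraries, 25 by both MPP libraries and not HSC, 1 by HSC and MPP replicate 1, 3 by HSC and MPP replicate 2, 40 by MPP replicate 1 alone and 10 by MPP replicate 2 alone. None was held by HSC alone. All 11 HSC peaks were therefore overlapped in at least 1 MPP library (exact binomial 95% interval 71.5% to 100%), beside 85.2% of the whole HSC list, a share inside that interval. MPP replicate 1 overlapped 8 of the 11 (72.7%) and MPP replicate 2 overlapped 10 (90.9%), beside 70.8% and 76.1% of the whole list. Between the MPP libraries, 33 of the 74 replicate 1 peaks (44.6%, 33.0% to 56.6%) met a replicate 2 peak and 32 of the 45 replicate 2 peaks (71.1%, 55.7% to 83.6%) met a replicate 1 peak, beside 44.9% and 68.1% of the whole lists. The sharing of peaks around these genes was thus close to that of the lists they came from.

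Where both MPP libraries held a site, their summits lay a median of 29.5 bp apart, with a range of 2 to 251 bp over 32 sites, and 25 of the 32 lay within 100 bp. MPP replicate 1 peaks that met a replicate 2 peak had a median fold percentile of 62.0 within their list, against 36.3 for those that did not. In MPP replicate 2 these percentiles were 56.8 and 31.1. The shared portion ranged widely from gene to gene, with overlapping intervals: both MPP libraries held 11 of the 16 Cebpb sites (68.8%, 41.3% to 89.0%) but 3 of the 14 Cebpe sites (21.4%, 4.66% to 50.8%). All 3 of those Cebpe sites were also held by HSC.

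**Figure D2:**
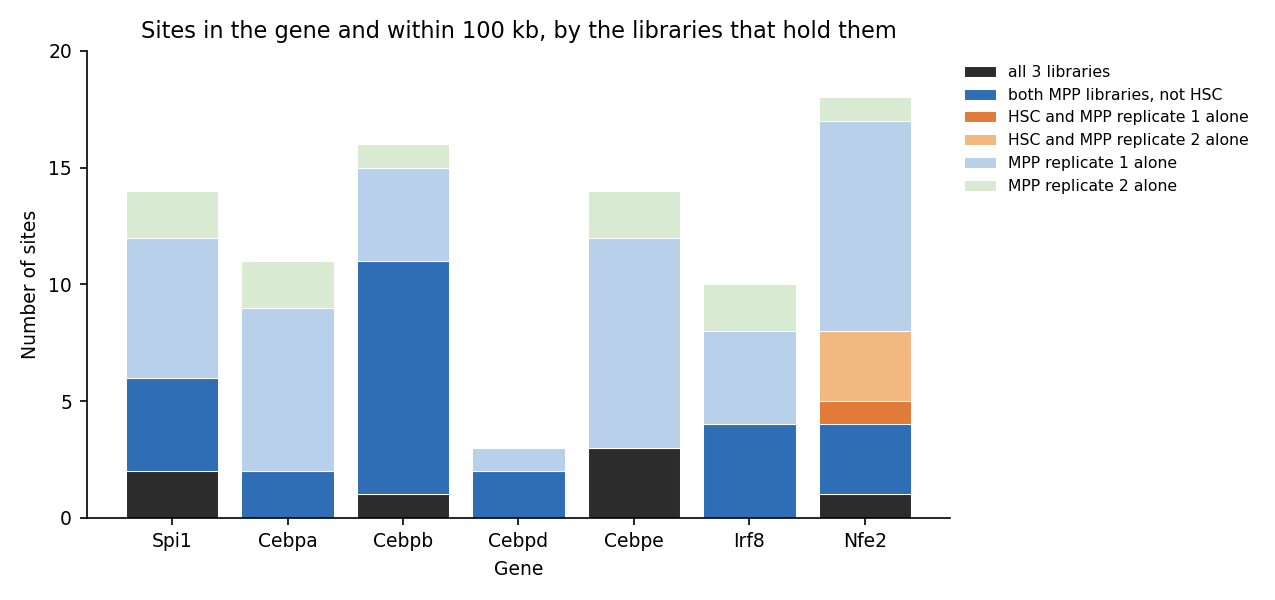
Number of merged sites in each gene's window (y axis) for the 7 genes (x axis), stacked by the libraries that hold each site. Nfe2 has 18 sites and Cebpd 3, and the sites held by MPP replicate 1 alone make up 9 of the 14 at Cebpe and 4 of the 16 at Cebpb.

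Spi1 (chr2:91082374-91115759), which encodes the ETS factor PU.1 required for the myeloid and B lymphoid lineages, was 1 of the 2 genes with an end peak in every library. The peak lay 0.66 to 0.79 kb inside the lower-coordinate end of the gene. Its pileup was 6 fragments in HSC (2.20 to 13.1), then 40 (28.6 to 54.5) and 35 (24.4 to 48.7) in MPP replicates 1 and 2. The HSC peak at chr2:91083041-91083403 had a fold of 3.76, near the foot of its list (top 96.9%). In MPP replicates 1 and 2 the peak stood in the top 14.3% and top 7.43% of its list by fold.

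A second Spi1 site was held by all 3 libraries, 11.8 to 11.9 kb below the lower end of the gene, which is the start of transcription by background knowledge, as the tables used here do not give the strand of Spi1. Its pileup was 10 in HSC (4.80 to 18.4), then 39 (27.7 to 53.3) and 25 (16.2 to 36.9) in MPP replicates 1 and 2, and it stood in the top 2.83% and top 7.49% of the MPP lists by fold. Of the Spi1 distal peaks it had the highest pileup in both MPP libraries and it was the single one in HSC. The upstream regulatory element of Spi1 is known at about -14 kb, and the 3 summits lay 2.11 to 2.19 kb from that position. They lay 0.105 to 0.187 kb from -12 kb, a position added after the values were seen. The site also covers the end of Slc39a13, a zinc transporter gene, so a peak of that promoter and a peak of a Spi1 element cannot be told apart by position. The part of the Slc39a13 promoter entry of RefSeq (GRCm38.p6) that lies under the peaks of all 3 libraries is shown because it is the sequence they share, chr2:91070325-91070565, minus strand, 5′ to 3′, with matches to the ETS core GGAAGT on either strand in capitals.
Slc39a13 promoter under the Spi1 -12 kb site: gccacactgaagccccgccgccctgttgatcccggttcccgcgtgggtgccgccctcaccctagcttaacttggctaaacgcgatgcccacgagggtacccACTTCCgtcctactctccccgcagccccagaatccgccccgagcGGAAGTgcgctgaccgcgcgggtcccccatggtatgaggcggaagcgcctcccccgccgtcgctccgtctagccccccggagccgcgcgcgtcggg
It holds 2 matches, 1 on each strand, and 18.8% of 32544 promoter entries hold at least 1 in a stretch of the same length and place. On either strand it lacks the receptor hexamer AGGTCA and its common variant GGGTCA, the C/EBP form TTNNGNAA and the NF-E2 core TGAGTCA. Its GC content was 71.0%.

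Inside Spi1, both MPP libraries had a peak 14.2 kb from the lower end, with pileups of 21 (13.0 to 32.1) and 14 (7.65 to 23.5). MPP replicate 1 alone had 1 at 4.12 kb with a pileup of 17, and MPP replicate 2 alone had 1 at 16.0 kb with a pileup of 12. Of the 10 distal sites, 4 lay at an end and 5 in the body of another protein-coding gene, since 10 other such genes fall in the window. Both MPP libraries marked Rapsn, a gene of the neuromuscular synapse, 39.6 kb below the lower end, with pileups of 26 and 22. They also marked both ends of Nr1h3, which encodes the liver X receptor alpha, an RXR partner. The site at the Madd and Nr1h3 ends, about 68.2 kb above Spi1, had pileups of 25 (16.2 to 36.9) and 21 (13.0 to 32.1), and the site at the Nr1h3 and Acp2 ends, about 87.0 kb above, had 25 (16.2 to 36.9) and 12 (6.20 to 21.0). The latter overlaps a promoter entry of Acp2, and neither overlaps one of Nr1h3. Promoter entries of Nr1h3 lie under a site in its body, 79.0 kb above Spi1. MPP replicate 1 alone held that site, with a pileup of 20 (12.2 to 30.9). HSC had no peak at Nr1h3.

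**Figure D3:**
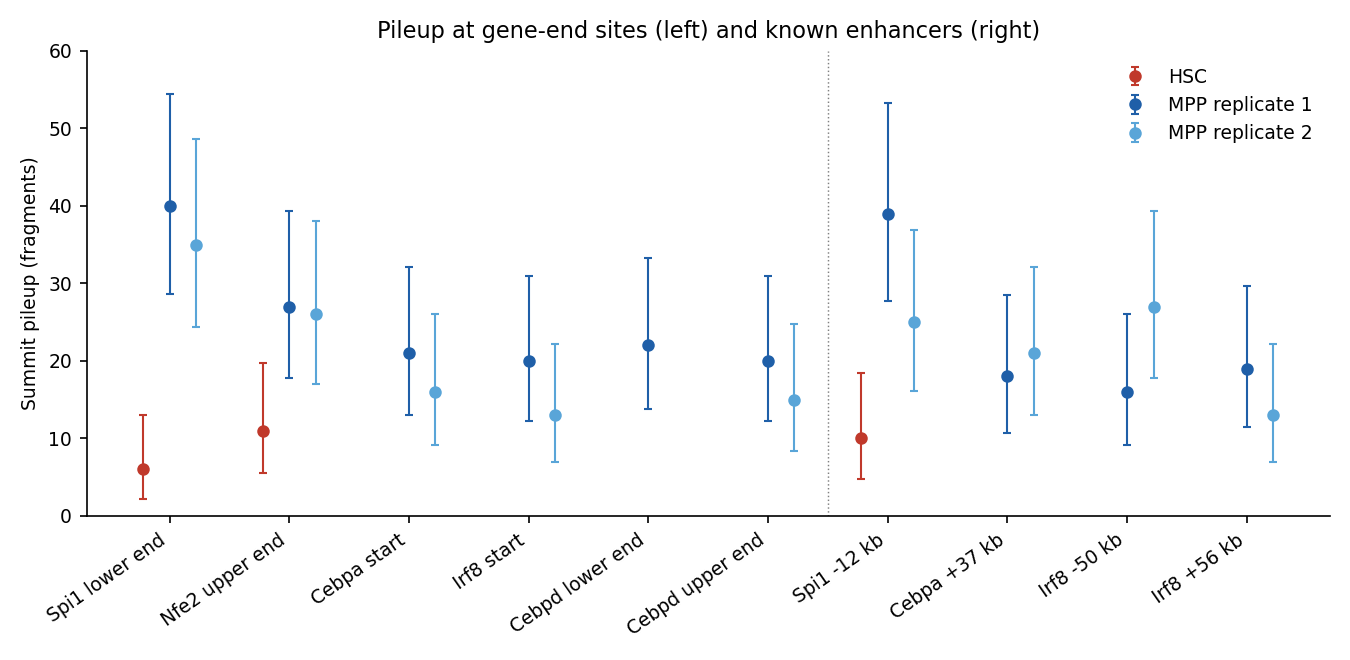
Summit pileup in fragments (y axis, linear from 0) with exact Poisson 95% intervals at the 6 gene-end sites (left of the dotted line) and at 4 sites near known enhancer positions (right), by library. HSC points appear at Spi1 and Nfe2 only; a missing point means that the library lists no peak there.

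Cebpa (chr7:35119293-35121928) encodes the C/EBP factor needed to form granulocyte and monocyte progenitors. Its start held a peak in both MPP libraries and none in HSC, whose nearest summit lay 212 kb from the gene. The pileup was 21 (13.0 to 32.1) and 16 (9.15 to 26.0) in MPP replicates 1 and 2, and the summits lay 90 and 122 bp before the start of transcription. These peaks were of middle rank, in the top 63.2% and top 56.7% of their lists. Irf8 (chr8:120736358-120756694) encodes an interferon regulatory factor that favours monocytes and dendritic cells over neutrophils. It showed the same arrangement: its start held a peak in both MPP libraries, with pileups of 20 (12.2 to 30.9) and 13 (6.92 to 22.2) and summits 121 and 94 bp before the start, and the nearest HSC summit lay 147 kb away. The RefSeq promoter sequence (GRCm38.p6) under both MPP peaks is shown for each gene, plus strand, 5′ to 3′: chr7:35119043-35119292 for Cebpa and chr8:120736158-120736357 for Irf8. Capitals mark TATAAAA, a motif looked for after the sequences had been seen.
Cebpa promoter: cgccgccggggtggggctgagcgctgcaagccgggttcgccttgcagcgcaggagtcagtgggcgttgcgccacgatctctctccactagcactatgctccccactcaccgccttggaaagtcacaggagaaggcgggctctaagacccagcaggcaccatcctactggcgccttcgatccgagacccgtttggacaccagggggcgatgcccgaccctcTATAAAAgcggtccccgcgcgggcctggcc
Irf8 promoter: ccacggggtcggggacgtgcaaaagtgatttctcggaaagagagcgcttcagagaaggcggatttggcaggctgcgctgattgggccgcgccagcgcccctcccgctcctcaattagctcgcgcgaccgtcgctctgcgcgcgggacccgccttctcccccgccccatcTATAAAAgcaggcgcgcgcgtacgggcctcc
TATAAAA occurs once in each, and 4.94% and 3.95% of promoter entries hold it on either strand in a stretch of the same length and place. Neither the printed stretches nor the whole 300-base entries of these 2 genes hold either receptor hexamer, their direct repeats DR1, DR4 and DR5, the C/EBP motif TTGCGCAA or its looser form TTNNGNAA, the ETS core or the NF-E2 core. In the whole entries of all promoters, AGGTCA occurs in 16.2%, GGGTCA in 13.7%, TTNNGNAA in 40.7%, GGAAGT in 23.7% and TGAGTCA in 5.19%. The absence says only that these letters are not in these windows. GC content was 66.4% for the Cebpa stretch and 67.0% for the Irf8 stretch, beside a median of 53% over whole promoter entries.

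At the known Cebpa enhancer 37 kb after the start, an element needed for Cebpa expression in myeloid progenitors, both MPP libraries had a peak with its summit at 37.3 kb. Its pileup was 18 (10.7 to 28.4) and 21 (13.0 to 32.1) in MPP replicates 1 and 2, and HSC had no peak there. In replicate 2 it was the strongest Cebpa peak by fold, in the top 17.4% of its list, while in replicate 1 it stood in the top 63.2%. These 2 sites, the start and the enhancer, were the only Cebpa sites that both MPP libraries held. The other 9 were held by 1 library each, 7 by MPP replicate 1. An end of Cebpg, which encodes a C/EBP partner, had a peak in MPP replicate 2 alone, with a pileup of 13 (6.92 to 22.2). The enhancer site overlaps at its edge the RefSeq promoter entry of Gm35889, an uncharacterised gene. The stretch under both MPP peaks, chr7:35156787-35156885, minus strand, 5′ to 3′, is shown with AGGTCA in capitals.
Gm35889 promoter at the Cebpa +37 kb site: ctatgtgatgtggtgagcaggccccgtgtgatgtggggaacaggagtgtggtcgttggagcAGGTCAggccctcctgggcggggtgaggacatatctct
AGGTCA occurs once, and 5.23% of promoter entries hold it in a stretch of the same length and place. The stretch is 99 bases of a longer site and holds neither summit, which lie at chr7:35156565 and chr7:35156593 in MPP replicates 1 and 2. The rest of the site was not searched.

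Enhancers of Irf8 are known at -50, +32, +41 and +56 kb from its start. Both MPP libraries had a peak near -50 kb and near +56 kb, and no library had one within 2.5 kb of +32 or +41 kb. The -50 kb site had a pileup of 16 (9.15 to 26.0) and 27 (17.8 to 39.3) in MPP replicates 1 and 2. Its rank differed between them: it stood in the top 84.7% of the replicate 1 list and in the top 5.83% of the replicate 2 list, where it was the strongest Irf8 peak by fold. The +56 kb site had pileups of 19 (11.4 to 29.7) and 13 (6.92 to 22.2). A further site 34.5 kb before the start was held by both, with pileups of 25 (16.2 to 36.9) and 15 (8.40 to 24.7). The Irf8 peak of highest pileup in MPP replicate 1, 57.8 kb before the start with 29 fragments (19.4 to 41.6), had no counterpart in replicate 2. Of the 6 known enhancer windows looked at over Spi1, Cebpa and Irf8, 4 held a peak in each MPP library and 1, the Spi1 window, held a peak in HSC. At the same positions from the starts of 17491 protein-coding genes with a promoter entry, 10.4% to 11.1% of windows held a peak in MPP replicate 1, 7.25% to 7.86% in replicate 2 and 1.51% to 1.72% in HSC. These shares were computed after the values were seen, and the difference was not tested. With a half-width of 1 kb the Spi1 window held no peak, since its summits lie over 2 kb from the position and at the Slc39a13 end, which left 3 windows in each MPP library and 0 in HSC.

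Cebpb (chr2:167688915-167690432), a C/EBP factor of macrophages and of granulopoiesis under infection, had no end peak in any library and is too short for an internal one. Its window held 15 peaks in replicate 1 and 12 in replicate 2 of the MPP, all distal. HSC held 1. Other coding genes in the window are Ube2v1 and Tmem189. Of the 16 merged sites 13 lay between genes, and Cebpb was the nearest gene for 10. Of the 74 peaks of MPP replicate 1 around the 7 genes, the one of highest fold and pileup lay 8.82 kb before its start, with 46 fragments (33.7 to 61.4), a fold of 10.2 and a place in the top 0.65% of the list. MPP replicate 2 had no peak there, so it rests on 1 library. Beyond the upper end, the stretch from 60 to 90 kb held 6 and 4 peaks in MPP replicates 1 and 2, as well as the single HSC peak of the window. That site, 85.0 kb above the upper end, had pileups of 8 in HSC (3.45 to 15.8), then 28 (18.6 to 40.5) and 16 (9.15 to 26.0) in MPP replicates 1 and 2. A site 33.4 kb above the upper end had 33 (22.7 to 46.3) and 23 (14.6 to 34.5) in the MPP libraries. The RefSeq Cebpb promoter (GRCm38.p6, chr2:167688665-167688914, plus strand, 5′ to 3′) is shown as a promoter of the family without a peak, with GGGTCA in capitals.
Cebpb promoter: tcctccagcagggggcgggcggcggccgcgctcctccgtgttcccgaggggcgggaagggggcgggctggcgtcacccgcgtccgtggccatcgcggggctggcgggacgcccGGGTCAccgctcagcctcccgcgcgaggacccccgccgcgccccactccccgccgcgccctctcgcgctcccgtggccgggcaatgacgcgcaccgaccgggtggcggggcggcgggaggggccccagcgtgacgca
GGGTCA, a hexamer of the RXR type, occurs once here, where no library listed a peak, and 11.7% of promoter entries hold it in a stretch of the same length and place. The GC content was 81.6%.

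Cebpd (chr16:15887286-15889545), a C/EBP gene induced in inflammation, had the fewest sites, 3 in all and none in HSC, whose nearest summit lay 244 kb away. A peak 161 bp outside its lower end was held by MPP replicate 1 alone, with a pileup of 22 (13.8 to 33.3). A peak 0.51 kb outside its upper end was held by both MPP libraries, with pileups of 20 (12.2 to 30.9) and 15 (8.40 to 24.7). The latter also lies at an end of Spidr, a DNA repair gene, so the peak cannot be assigned to 1 of them by position. The third site lay at an end of Mzt2, 23.9 kb below, with pileups of 16 (9.15 to 26.0) and 11 (5.49 to 19.7).

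Cebpe (chr14:54710363-54712174), the C/EBP factor of terminal granulocyte maturation, had no end peak and is too short for an internal one. Its window held 3 of the 7 sites found in all 3 libraries. The nearest, 4.38 kb below the lower end in HSC, was not at or in any other gene and had pileups of 9 in HSC (4.12 to 17.1), then 18 (10.7 to 28.4) and 13 (6.92 to 22.2) in MPP replicates 1 and 2. A site at the ends of Acin1, an RNA-processing gene, and 1700123O20Rik had pileups of 10 (4.80 to 18.4), 13 (6.92 to 22.2) and 10 (4.80 to 18.4). A site in the body of Slc7a8, an amino acid transporter gene, 56.3 kb above the upper end, had 6 (2.20 to 13.1), 16 (9.15 to 26.0) and 17 (9.90 to 27.2). These raw pileups come from libraries of unlike depth. Scaled to the HSC background, as described with the other sites of all 3 libraries, the nearest site had 3.79 (2.24 to 5.98) and 7.26 (3.86 to 12.4) from MPP replicates 1 and 2 against 9 in HSC. The Slc7a8 site had 3.37 (1.92 to 5.46) and 9.49 (5.53 to 15.2) against 6, and all of these intervals overlap that of HSC.

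Nfe2 (chr15:103248212-103258403) encodes a subunit of NF-E2, a factor of megakaryocytes and platelet formation that also acts in erythroid cells. It had 5 of the 11 HSC peaks. Its upper end was marked in every library, with the HSC summit 31 bp outside the gene and pileups of 11 in HSC (5.49 to 19.7), then 27 (17.8 to 39.3) and 26 (17.0 to 38.1) in MPP replicates 1 and 2. MPP replicate 2 alone had an internal peak, 4.64 kb from the lower end, with 18 fragments (10.7 to 28.4). The 4 other HSC peaks were each shared with 1 MPP library. At an end of Copz1, a coat protein gene, 14.3 kb above the upper end, the pileup was 15 in HSC (8.40 to 24.7) and 22 in MPP replicate 2 (13.8 to 33.3). That HSC peak had the highest pileup and fold (8.52, top 5.83% of its list) of the 11, and it was the 1 HSC peak of the 11 with a q of 1e-05 or lower. MPP replicate 1, with the longest list, had no peak there. HSC also shared a site at a Smug1 end and one at a Gpr84 end with MPP replicate 2, with 7 fragments each (2.81 to 14.4) against 10 (4.80 to 18.4) and 13 (6.92 to 22.2). MPP replicate 1 had peaks at ends of Smug1 (21) and Gpr84 (19 and 17) too, at other positions that do not overlap these sites. A site in the body of Cbx5, a heterochromatin protein gene, was held by HSC with 7 fragments and by MPP replicate 1 with 27 (17.8 to 39.3). This site overlaps a RefSeq promoter entry of Cbx5. Other coding genes of the window, though not all 7, took 14 of its 16 distal sites. The RefSeq Copz1 promoter (GRCm38.p6, chr15:103272638-103272887, plus strand, 5′ to 3′) lies under the HSC and MPP replicate 2 peaks and is shown because that HSC peak had the highest fold around the 7 genes.
Copz1 promoter near Nfe2: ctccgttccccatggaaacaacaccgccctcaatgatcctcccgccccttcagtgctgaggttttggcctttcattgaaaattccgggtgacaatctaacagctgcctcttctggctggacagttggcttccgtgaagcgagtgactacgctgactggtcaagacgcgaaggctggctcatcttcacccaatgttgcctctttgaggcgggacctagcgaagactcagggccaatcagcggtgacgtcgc
On either strand it holds neither receptor hexamer, nor the looser C/EBP form, the ETS core, the NF-E2 core or TATAAAA, and so has no capitals.

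Over the 7 genes, 22 of the 75 distal sites lay at an end of another protein-coding gene, 20 in the body of one and 33 between genes, and the named gene was the nearest for 20. Both MPP libraries held 8 of the 22 (36.4%, 17.2% to 59.3%), 5 of the 20 (25%, 8.66% to 49.1%) and 13 of the 33 (39.4%, 22.9% to 57.9%), so the intervals overlap. HSC held 5, 2 and 2 of them. Promoter entries gave a separate count: 22 of the 75 overlapped an entry of another gene, 18 of them an entry of a protein-coding gene. Some sites placed in a gene body or between genes therefore lie at an annotated start. Of the 75, 55 had another gene as their nearest, and a distal peak is not assigned here to the gene whose window it lies in.

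To set the HSC library beside the deeper MPP libraries, each MPP pileup was multiplied by the ratio of genome-wide backgrounds. At the 25 sites held by both MPP libraries and not by HSC, the scaled pileup had a median of 4.42 (2.94 to 6.94 over sites) from MPP replicate 1 and of 8.37 (5.58 to 15.1) from MPP replicate 2. The lowest pileup called in HSC, 5, was reached at 11 of the 25 sites from replicate 1 and at all 25 from replicate 2. The 2 MPP libraries thus differ in how many of these sites would reach the lowest HSC pileup at the HSC background. A peak is called against its local background, so reaching 5 need not give a call. The HSC peaks around these genes had 6 to 15 fragments. At the 7 sites of all 3 libraries, 4 and 7 reached it. The Spi1 end had 6 fragments in HSC (2.20 to 13.1), against scaled values of 8.41 (6.01 to 11.5) and 19.5 (13.6 to 27.2). The second interval lies above the HSC interval and the first does not, but the 2 MPP intervals do not overlap each other either. Scaled intervals carry counting error alone, without that of the background ratio or between libraries. They are no test of HSC against MPP, here or at the sites that follow. The Nfe2 end had 11 (5.49 to 19.7), against 5.68 (3.74 to 8.26) and 14.5 (9.48 to 21.3), and both intervals overlap that of HSC. At the Acin1 site near Cebpe, HSC had 10 (4.80 to 18.4), against 2.73 (1.46 to 4.68) and 5.58 (2.68 to 10.3), so there the HSC interval lay above that from replicate 1 and overlapped that from replicate 2.

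**Figure D4:**
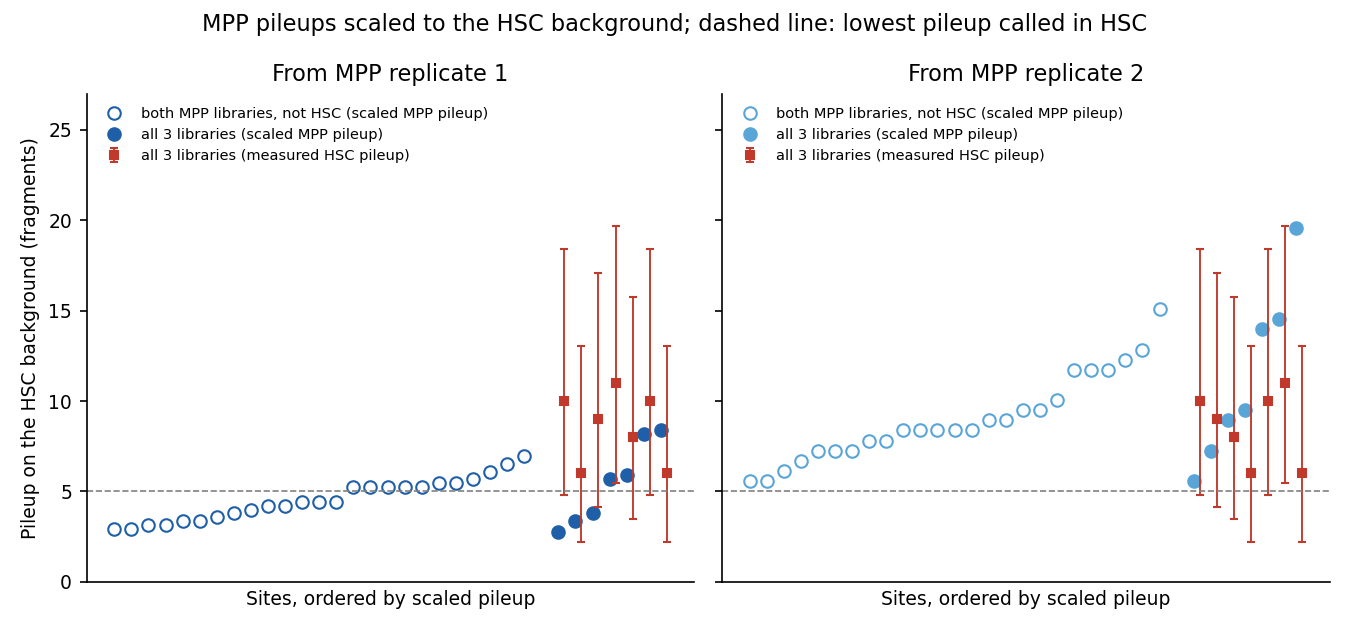
MPP pileup scaled to the HSC background (y axis, fragments) for the sites of both MPP libraries, ordered by value, from MPP replicate 1 (left) and MPP replicate 2 (right); open dots are sites without an HSC peak, filled dots sites of all 3 libraries, and red squares the measured HSC pileup of the latter with its exact Poisson 95% interval. The dashed line marks 5, the lowest pileup called in HSC. From replicate 1, 11 of the 25 sites without an HSC peak reach the line, and from replicate 2 all 25 do.

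Partners, relatives and targets of the factors were taken as 6 lists with 71 genes, all found in the table, and compared at gene ends. HSC marked the end of 6 of the 71 (8.45%), MPP replicate 1 of 30 (42.3%) and MPP replicate 2 of 38 (53.5%), against 7.97%, 40.0% and 35.1% of all genes. The first 2 shares were close to the background, though single lists lay on both sides of it. They ranged from 0% to 37.5% in HSC and from 23.1% (other myeloid regulators) to 75% (partners and relatives of NF-E2) in MPP replicate 1. The share in MPP replicate 2 was above the background over the 71 genes and in 4 of the 6 lists, but not for the ETS relatives (2 of 8) or the myeloid targets (7 of 22), and this was not tested.

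The partners and relatives of NF-E2 gave 3 of the 6 HSC genes among 8, beside 7.97% of all genes. Maff, a small Maf partner, had pileups of 12 in HSC (6.20 to 21.0), then 27 (17.8 to 39.3) and 19 (11.4 to 29.7) in MPP replicates 1 and 2. Bach1, a haem-regulated repressor that competes for the same sites, had 10 (4.80 to 18.4), 28 (18.6 to 40.5) and 22 (13.8 to 33.3). Nfe2l1 had 7 in HSC and 10 in MPP replicate 2, and Nfe2l2, the oxidative stress factor, had 19 and 24 in the MPP libraries, in peaks that do not overlap. In all, MPP replicate 1 marked 6 of the 8 and MPP replicate 2 marked 5, beside 40.0% and 35.1% of all genes.

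Of 12 C/EBP and AP-1 partners, none had a gene-end peak in HSC, 7 and 10 in MPP replicates 1 and 2, with 6 in both. Of all genes, 7.97% had one in HSC, 40.0% and 35.1% in MPP replicates 1 and 2, and 28.0% in both. The same shares apply to the IRF and ETS counts below, and no list was tested. Among the 6 partners marked in both MPP libraries were Cebpz (pileups 26 and 17), the stress factor gene Atf4 (22 and 17), Jund (28 and 20) and Fos (20 and 16). Cebpz shares the C/EBP name, and whether it is a partner of these factors was not checked here. Of 8 IRF family genes, none was marked in HSC and 4 in both MPP libraries, among them Irf1 (21 and 13), Irf2 (19 and 16) and Irf4 (23 and 14). The Irf1 peaks of the MPP libraries do not overlap each other. Of 8 ETS relatives of PU.1, 2 were marked in HSC, 4 and 2 in MPP replicates 1 and 2. Gabpa was marked in all 3 libraries with 6, 21 and 12 fragments, and Ets2 in HSC with 7 and MPP replicate 1 with 20, in peaks that do not overlap. Elf1 had 24 and 14 in the MPP libraries, and Etv6 had 25 in replicate 1 alone.

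Of 13 other myeloid regulators, Cbfb, the partner of RUNX factors, was marked in all 3 libraries, with 7, 14 and 9 fragments, although the MPP replicate 1 peak lies beside the others and does not overlap them, and Id2 in both MPP libraries with 22 and 22. The list had 3 and 8 genes marked in MPP replicates 1 and 2, although replicate 1 has the longer list. The shares of all genes were 7.97% in HSC, then 40.0% and 35.1% in MPP replicates 1 and 2. Cux1 was marked in replicate 2 alone (11). Of 22 myeloid target genes, none was marked in HSC, 6 and 7 in MPP replicates 1 and 2, beside the same shares of all genes. Both held Csf2rb, a cytokine receptor chain (23 and 15), Fcgr3, an Fc receptor (18 and 14), Lyz2, which encodes lysozyme (18 and 15), and Ncf1, a subunit of the phagocyte oxidase (21 and 15). No library had a gene-end peak at 13 of the 22, among them the receptor genes Csf1r, Csf2ra and Csf3r and the granule genes Elane, Prtn3, Ctsg, Ltf and Camp. Beside these 13 of 22, no library had one at 52.6% of all genes.

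**Figure D5:**
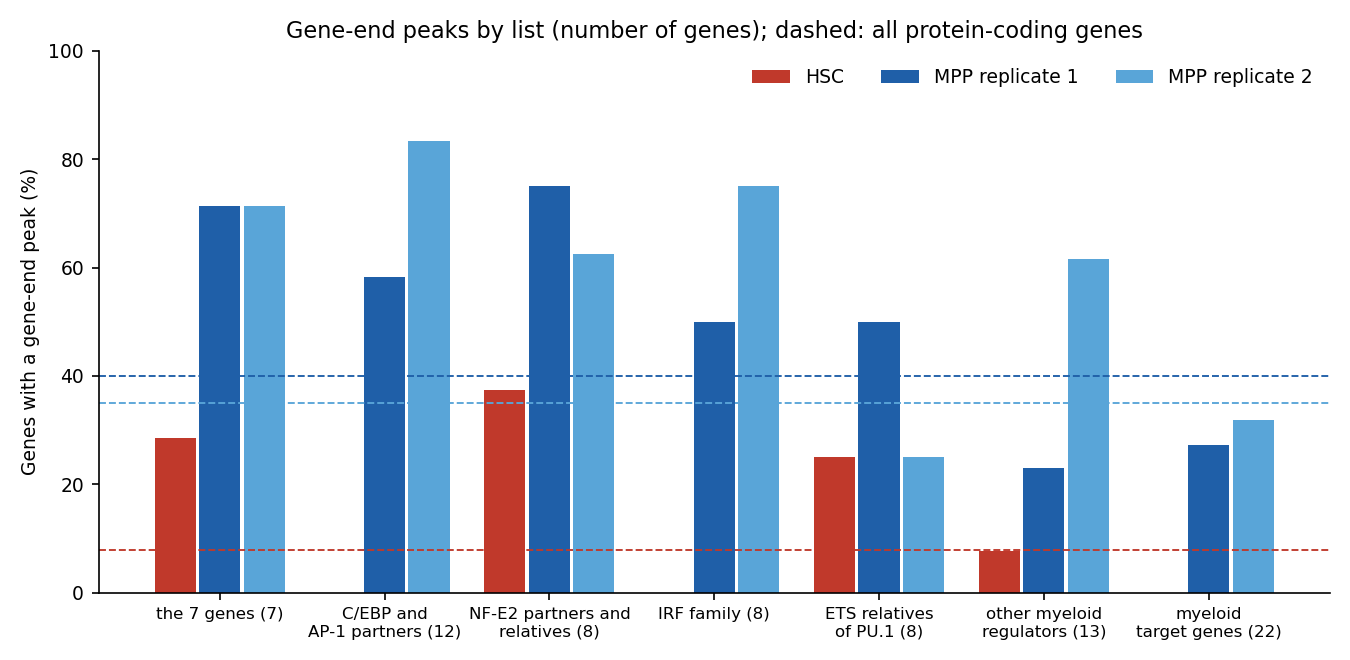
Percent of genes with a gene-end RXRA peak (y axis, 0 to 100) in each library for the 7 factors and the 6 lists of partners, relatives and targets, with the share of all protein-coding genes as dashed lines in the colour of each library. HSC is at 0 for the C/EBP and AP-1 partners, the IRF family and the myeloid target genes.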

How the data were processed

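RXRA CUT&RUN was compared over 1 HSC and 2 MPP libraries, grouped by the labels. Each deposited file is a narrowPeak table of 10 columns, and peaks were called library by library. The submitters' processing notes name mm10 as the build and, as tools, MACS2 2.1.4, Bowtie2 2.3.4.1, cutadapt 1.9.1 and Trim Galore 0.4.2. Settings, duplicate handling and any control library were not given in the sources used here. By the layout, the fold deposited by the authors is a ratio, summit pileup over local background. The −log10 p and −log10 q columns that the authors deposited were kept unchanged, as was the deposited summit offset, and the score column was not used. The weakest q was 0.0995, 0.0971 and 0.0993 in HSC and MPP replicates 1 and 2.

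Pileup and local background were solved from fold, taken as pileup plus 1 over background plus 1, and the Poisson p. Whole pileups, to 0.001 in −log10 p, resulted for 99.98% of the HSC list and for 100% and 99.99% of the lists of MPP replicates 1 and 2. The lowest background recovered in a list was taken as genome-wide. Read totals are not known from the files. Intervals are exact (Poisson or Clopper-Pearson, 95%) and cover counting error only, as released fragments without molecular identifiers are not independent molecules.

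Genes came from a RefSeq table of GRCm38.p6, with 21883 protein-coding genes on chromosomes 1 to 19, X and Y. The gene table used has no strand, so both gene ends count. Promoter entries (250 bases before to 50 after a start) gave the strand of 3 of the 7 genes, Cebpa, Cebpb and Irf8. Peaks overlapped when sharing at least 1 bp, checked with bedtools 2.31.1. Python 3.11.15, numpy 2.4.6, pandas 2.3.3, scipy 1.17.1 and matplotlib 3.10.9 were used, and the scripts were tested on simulated data.

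Genes named are the 7, genes whose end or body holds a peak of their windows, and up to 4 genes per list, by number of libraries with a gene-end peak, then HSC fold, then MPP replicate 1 fold; a few genes without a peak were added to these after their values were seen. Some genes that this rule names are not reported here. The 7 genes and the lists were chosen with earlier results of these data known. Alternatives were a stricter q, MPP lists of the HSC length, other windows and distal limits, placing peaks by overlap, other overlap rules, and leaving out an MPP library. No test was made, because there is 1 HSC library.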

Additional observations from a re-analysis of the deposited data

How the results depend on the processing

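Of 92 values recomputed under the alternatives, 58 stayed within 1.5 times of the value reported. At a q of 1e-05 or lower, HSC kept none of its 2 genes with a gene-end peak, 1 of 9 distal peaks, 1 of the 11 sites shared with an MPP library and 1 of 6 list genes; no q-based alternative moved the 5 genes of either MPP library. The same limit left MPP replicates 1 and 2 with 1 and 2 internal peaks (from 2 and 4), 31 and 23 distal peaks (from 66 and 36), 19 sites in both (from 32), and replicate 2 with 25 list genes (from 38). With the MPP lists held to the HSC length, replicate 1 had a gene-end peak at 0 and replicate 2 at 2 of the 7 genes, or 2 in either, with 0 internal peaks, 9 and 8 distal peaks, 3 sites in both, 6 sites shared with HSC, and 3, 4 and, in either, 5 list genes. A gene-end window of 500 bp left 1 gene in HSC and 3 in replicate 2. A distal limit of 50 kb left 5, 31 and 18 distal peaks, and counting a peak for its nearest gene alone left 2, 16 and 12, in HSC and MPP replicates 1 and 2. A half-width of 1 kb left 0 enhancer windows with a peak in HSC. Leaving out either MPP library gave 5 to 5 genes with a gene-end peak, 1 to 3 with an internal peak, 7 to 7 with a distal peak, 8 to 10 sites shared with HSC and 30 to 38 list genes; without MPP replicate 2 the genes with an internal peak went from 3 to 1 and the list genes from 46 to 30. No paired analysis was possible because HSC has 1 library, its number was given in accession order, and no result comes from a test. Counting starts alone was not run, since the strand is given for 3 of the 7 genes. The -12 kb position of Spi1 and the motif TATAAAA were added after seeing the data. HSC had the lowest depth by the recovered background, and its peaks around these genes rest on 6 to 15 fragments. Depth, cell number and cell type differ together between HSC and MPP, and their parts were not tested.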
